A study of Xenopus laevis with 24 samples.

Results

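Hox transcripts were followed by RNA sequencing in explants cut from embryos of the African clawed frog, *Xenopus laevis*. A Hox gene model was any model whose deposited name began with hox, a cluster letter from a to d and a paralog number, which gave 52 of the 31694 models in the count table. Of these, 15 belonged to cluster A, 11 to cluster B, 13 to cluster C and 13 to cluster D. The frog's genome is allotetraploid, so many genes have a homeolog in each of the subgenomes L and S, and 27 of the models were L copies and 25 were S copies. Another 9 models carried only a LOC identifier and were matched by gene ID to Hox symbols in the RefSeq gene table for the assembly Xenopus_laevis_v10.1. They fall outside the name rule, are left out of the Hox counts, sums and shares below, and are described apart. A model named xhoxc8 also falls outside the rule and is not described. The name *hoxa2.L* is shared by 2 models, which are told apart below by their deposited numbers, gene1425 and gene18378.

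Hox genes encode homeodomain transcription factors that give cells their position along the head to tail axis. They lie side by side in clusters, and paralog numbers count their order within a cluster, from low numbers that mark the hindbrain and neck to high numbers that mark the lower trunk and tail. In vertebrates the low-numbered genes of a cluster tend to come on earlier and to reach further forward, a rule known as collinearity. In the frog gastrula, Hox transcripts are known from the mesoderm outside the organizer first and from the overlying neural tissue later.

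The explants came from the dorsal marginal zone (DMZ), the equatorial tissue that holds the Spemann organizer, from the ventral marginal zone (VMZ) and from the animal cap, the prospective ectoderm. Per the labels' protocols, embryos were kept at 16 °C, the marginal zones were dissected at stage 10.5 and the caps at stage 8, and DMZ explants then grew in Steinberg's solution. DMZ explants were collected at 10 stages from 11 to 18, in steps of 0.5 up to stage 13 and of 1 from there, and VMZ explants and caps at stage 11. Each library is a pool, of 5 or 6 explants for the DMZ, 5 for the VMZ and 20 for the caps. The labels give no genotype, clutch or day, so the p-values below measure only the spread between these samples. There were 12 groups of 2 libraries each, numbered replicate 1 and 2 in the labels.

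Most libraries held 21.9 to 39.8 M counts. The exceptions were replicate 2 of DMZ stage 11, with 7.38 M, and replicate 1 of DMZ stage 17, with 14.6 M. A floor of 3 counts corresponds to 0.384 CPM in DMZ stage 11 replicate 2 and to 0.102 CPM in replicate 1 of that group. In those libraries 24 and 8 of the 52 models had no count, so onsets close to stage 11 rest on thin data. The labelled regions were set against marker lists. Summed organizer markers (*chrd*, *gsc*, *nog*, *admp*) stood at 407 and 728 CPM in DMZ stage 11 explants, 5.998 and 4.97 CPM in VMZ explants and 7.22 and 5.06 CPM in caps. Epidermal and non-neural ectoderm markers stood at 932 and 478 CPM in DMZ stage 11 explants, 1802 and 1707 CPM in VMZ explants and 3573 and 2639 CPM in caps. Summed ventral markers did not set VMZ explants apart from caps. They stood at 385 and 284 CPM in DMZ stage 11 explants, 875 and 502 CPM in VMZ explants and 879 and 929 CPM in caps. Of their 11 models, edgeR called 2 higher and 0 lower in VMZ explants than in caps, against 0.721% and 0.313% of all models. Notochord markers stood at 1257 and 1208 CPM in DMZ stage 11 explants, 667 and 296 CPM in VMZ explants and 32.1 and 84.9 CPM in caps. Levels below are CPM on scaled library sizes and are not divided by transcript length, so they compare a model with itself and not with other models.

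All 52 Hox models had a higher mean at stage 18 than at stage 11 in the DMZ, against 50.7% of all models tested, and 45 of them were called higher by edgeR's quasi-likelihood test. None was called lower at stage 12, 14 or 18 than at stage 11, by edgeR or by DESeq2, and none had a lower value at an unadjusted p under 0.05. Of all models, 7.35%, 18.7% and 23.4% were lower at that unadjusted p in edgeR at stages 12, 14 and 18, and 2.86%, 15.9% and 20.9% of those with an adjusted p were called lower by DESeq2. Over the 31349 models tested, 20.9% were called higher and 19.6% lower in the same comparison, and 13.0% were called lower at stage 14. The summed Hox level in replicate 1 was 35.4, 51.0, 134, 168, 237, 281, 276, 453, 463 and 570 CPM from stage 11 to stage 18, in the order of the stages. In replicate 2 it was 24.6, 45.9, 60.2, 74.2, 99.0, 177, 215, 241, 312 and 312 CPM. Every DMZ library from stage 12 onward lay above all libraries of stages 11 and 11.5, although by little in replicate 2 of stage 12. In bulk RNA, more cells that express a gene and more RNA of it per cell cannot be told apart.

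Replicate 1 held more Hox RNA than replicate 2 in each of the 12 groups, by a ratio of 1.11 at DMZ stage 11.5 up to 2.39 at DMZ stage 13. At DMZ stage 12, 48 of the 52 models were higher in replicate 1, against 49.2% of all models, and at stage 18 it was 49 of 52 against 49.0%. Anterior neural markers (*otx2*, *six3*, *rax*, *en2*; 8 models) summed to 430 CPM in replicate 1 and 916 CPM in replicate 2 at stage 18, and to 388 and 1128 CPM at stage 14. In DMZ stage 11 explants they summed to 103 and 151 CPM, with 1 of the 8 models at 0 in each library. At stage 11.5 replicate 1 was the higher, at 493 against 161 CPM. At stage 12 the sums were closer, at 275 and 313 CPM. Somite and muscle markers summed to 241 and 96.3 CPM at stage 12, to 154 and 357 CPM at stage 14 and to 744 and 698 CPM at stage 18. The part of these tissues in the difference between the replicates was not tested.

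**Figure D1:**
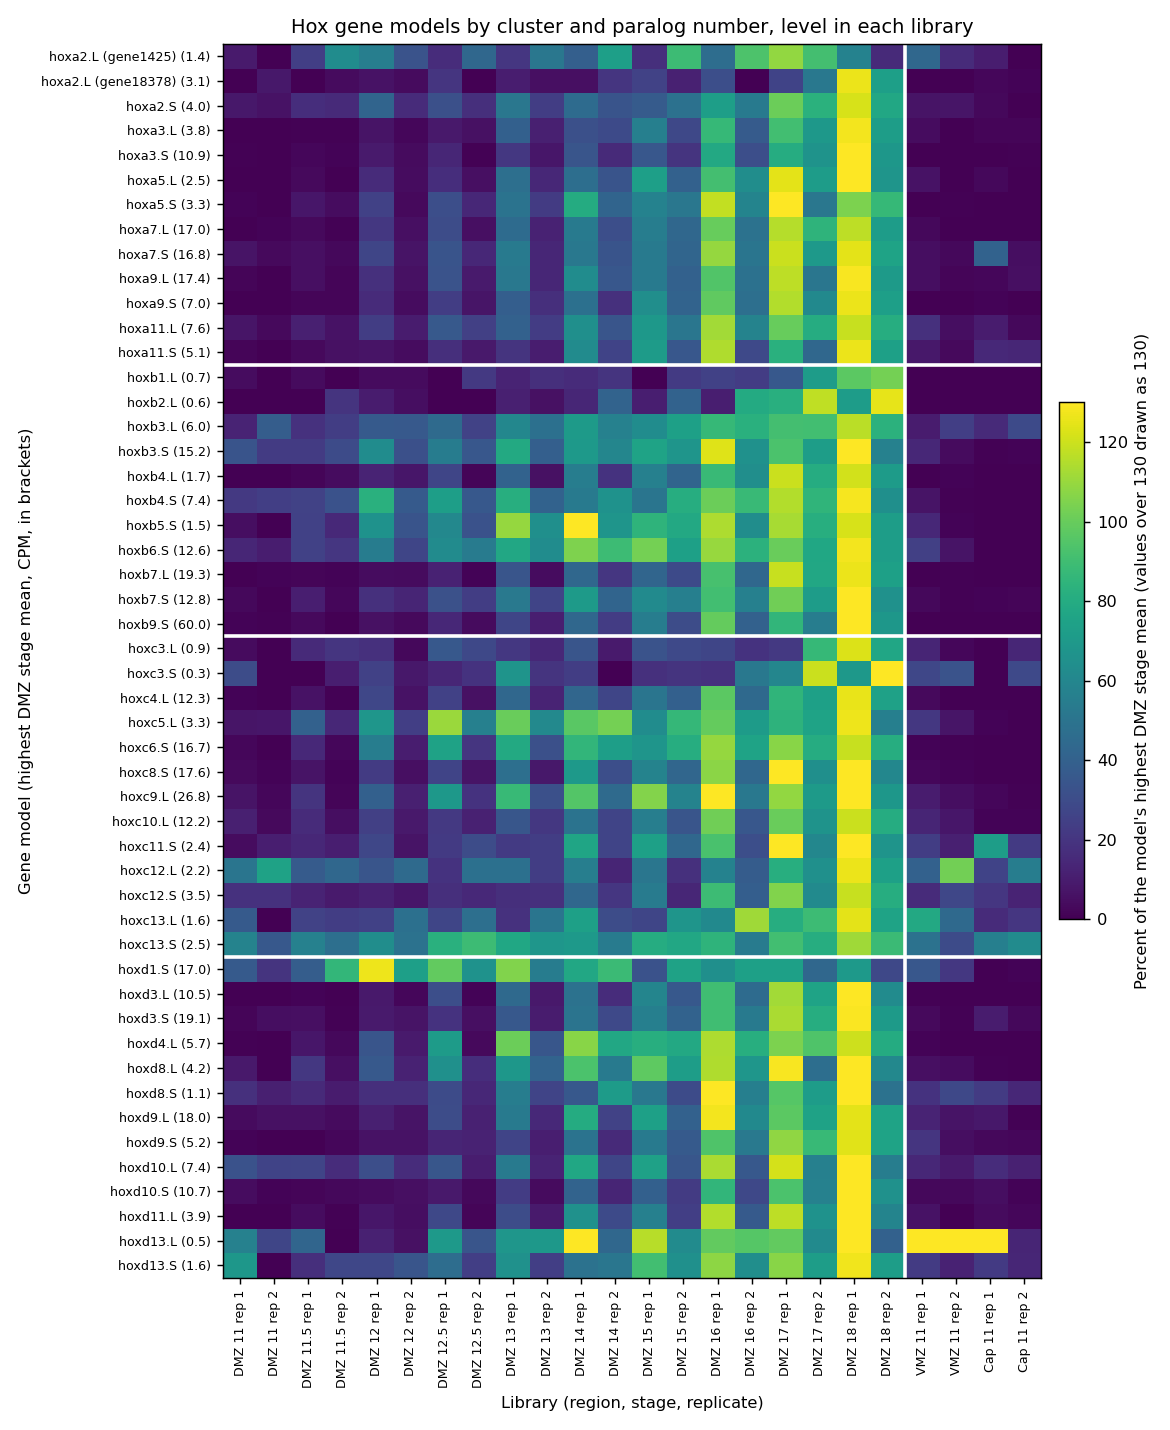
Level of each of 50 Hox gene models (rows, by cluster A to D and paralog number) in each library (columns), as a percentage of the model's highest DMZ stage mean, which stands in brackets in CPM. All 50 means at stage 18 lie above those at stage 11, and hoxd1.S is darker at stage 18 than at stage 12.

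Grouped by position, paralogs 1 to 3 (16 models) made up 21.2% of the Hox counts in replicate 1 and 20.1% in replicate 2 at DMZ stage 18, and 41.4% and 46.9% at stage 11. The Wilson 95% binomial intervals of those shares were 20.6 to 21.8% and 19.4 to 20.9% at stage 18 and 38.5 to 44.4% and 39.95 to 53.9% at stage 11. Paralogs 4 to 8 (17 models), the trunk members, held 19.6% and 19.3% at stage 11, 36.7% and 28.3% at stage 12 and 34.6% and 35.5% at stage 18. Paralogs 9 to 13 (19 models), the posterior members, held 39.0% and 33.9% at stage 11, 24.8% and 26.6% at stage 12 and 44.2% and 44.3% at stage 18. The share of the anterior class was lower at stage 18 than at stage 11 in both replicates, and that of the posterior class was lowest at stage 12 in replicate 1 and at stage 11.5 in replicate 2. The intervals cover counting error only, and the change in shares was not tested. The sums and shares leave out the models named only by LOC identifiers, 3 in each class, among them *hoxd1.L* and *hoxc6.L*. A share is weighted to the models with most counts, which depend in part on transcript length.

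**Figure D2:**
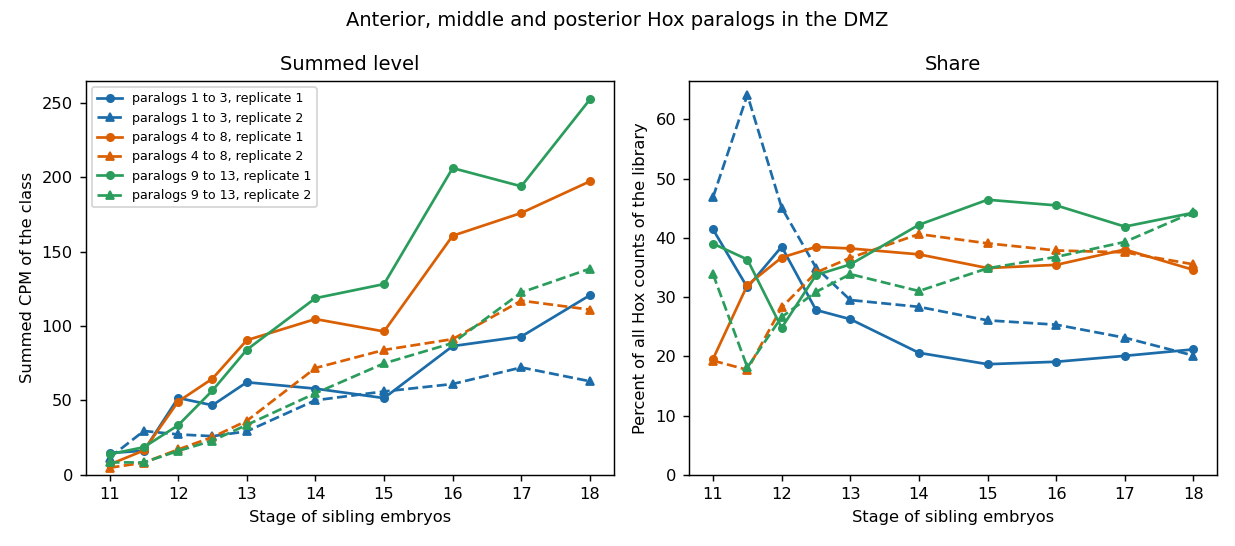
Summed level in CPM (left) and share in percent (right) for paralogs 1 to 3, 4 to 8 and 9 to 13 over the DMZ stages. Shares are of the counts of the Hox models under the name rule in each library. Solid lines show replicate 1 and dashed lines replicate 2. All 6 summed lines end above their start, and the share of paralogs 1 to 3 ends at 21.2% and 20.1%.

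The rise was placed in time by testing each later DMZ stage against stage 11, so that all 9 comparisons share the stage 11 libraries. A joint edgeR test for any change over the 10 stages called 37 of the 52 Hox models, against 30.0% of all models. No Hox model was called at stage 11.5, where 7 were higher at an unadjusted p under 0.05 (3.95% of all models) and 0 of all models were called higher, nor at stage 12, where 0.00319% of all models were. At stage 12, 27 Hox models were higher at an unadjusted p under 0.05 in edgeR, against 8.05% of all models. Fewer were so without DMZ stage 12 replicate 1. DESeq2 gave an adjusted p to 35 of the Hox models at that stage and called 13 higher, against 2.62% of all models with one. edgeR with the replicate number as a block called 20 higher, against 2.41% of all models. At stage 12.5, 12 Hox models were called higher (3.33% of all models), at stage 13 there were 29 (8.27%), and at stage 14 and at stage 15 there were 35 (12.5% and 14.1%). At stage 16 there were 40 (16.0%), at stage 17 there were 42 (18.3%) and at stage 18 there were 45. With the block, 33 were called at stage 12.5 (9.70% of all models), 35 at stage 13 (14.5%) and 39 at stage 14 (18.4%). The count at stage 14 was lower without either library of DMZ stage 11 and without DMZ stage 14 replicate 1. Such fits leave 1 library in a group, and the shares of all models they call are not given.

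Without the block, the 12 models called first, at stage 12.5, comprised 1 of paralogs 1 to 3, 8 of paralogs 4 to 8 and 3 of paralogs 9 to 13. Those of the trunk and posterior classes were *hoxa5.S*, *hoxa7.L*, *hoxa9.L*, *hoxa9.S*, *hoxb5.S*, *hoxb6.S*, *hoxb7.S*, *hoxb9.S*, *hoxc5.L*, *hoxc6.S* and *hoxd4.L*. The 12 come from all 4 clusters. By stage 14, 15 of the 17 models of paralogs 4 to 8 were called, against 8 of the 16 of paralogs 1 to 3 and 12 of the 19 of paralogs 9 to 13. At stage 18, all 17 models of the trunk class were called, with 13 of the 16 anterior and 15 of the 19 posterior models. With the block, the models called first were the 20 called at stage 12 (2.41% of all models). They comprised 3 of paralogs 1 to 3, 12 of paralogs 4 to 8 and 5 of paralogs 9 to 13. Whether the classes differ in these counts was not tested. A call needs a rise above stage 11, so a model already present then can be called late or never. With the block, *hoxb3.S* and *hoxb4.S*, at 1 CPM or more in both stage 11 libraries, were first called at stage 14. *hoxb6.S*, also at 1 CPM or more then, was among the first called. The first called stage is thus not an onset. The median log2 fold change of stage 18 over stage 11 was 4.56 over the 52 models, or 4.31 with models at 0 in stage 11 set to their bound, and 0.02 over all models. Of the 52, 49 had both stage 18 libraries above both stage 11 libraries, as did 37.1% of all models.

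The 7 models not called at stage 18 were *hoxa2.L* (gene1425), *hoxc3.S*, *hoxc12.L*, *hoxd1.S*, *hoxd10.L*, *hoxd13.L* and *hoxd13.S*. *hoxd10.L* (log2 fold change 1.74 ± 0.80, edgeR adjusted p = 0.0946) was called with the block (adjusted p = 0.00107 from edgeR). *hoxc3.S* and *hoxd13.L* stayed under 1 CPM in every DMZ stage mean. The other 3 models under 1 CPM, *hoxb1.L*, *hoxb2.L* and *hoxc3.L*, were called higher at stage 18.

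Among the anterior paralogs, *hoxd1.S*, a retinoid-responsive labial-type gene known from the early frog gastrula, had its highest mean at stage 12. Replicate 1 stood at 6.27, 6.52, 21.6, 16.8, 17.9, 13.2, 5.6, 11, 12.6 and 12 CPM over the 10 stages in order. Replicate 2 stood at 3.33, 14.7, 12.4, 11.3, 9.3, 15.1, 12.7, 12.6, 7.37 and 4.8 CPM. The highest values were at stage 12 in replicate 1 and at stage 14 in replicate 2, and the stage 18 mean was 49.2% of the stage 12 mean. Stage 18 and stage 11 libraries overlapped (log2 fold change 0.77 ± 0.58, edgeR adjusted p = 0.312 for stage 18 over stage 11), and without DMZ stage 18 replicate 1 the log2 fold change was -0.04. Stage 14 over stage 11 was not called (log2 fold change 1.52 ± 0.58, edgeR adjusted p = 0.0674) but was with the block (adjusted p = 0.0413 from edgeR).

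The paralog 2 and 3 genes described next had their highest means at stage 17 or 18, later than *hoxd1.S* at stage 12. The calls did not give this order. *hoxa2.S* was first called above stage 11 at stage 13, or at stage 12 with the replicate block. *hoxd1.S* was called at no stage without the block and first at stage 14 with it. *hoxa2* genes, known in mouse for the identity of rhombomeres and of the second pharyngeal arch, were low. *hoxa2.S* was at 4.93 and 3.15 CPM at stage 18 and 0.339 and 0.256 CPM at stage 11 (log2 fold change 3.68 ± 0.66, edgeR adjusted p = 0.000459). The model gene18378 of *hoxa2.L* stayed under 1 CPM in both libraries through stage 16 and reached 3.91 and 2.28 CPM at stage 18. The other, gene1425, was highest at stage 17 with 1.54 and 1.29 CPM and stood at 0.816 and 0.219 CPM at stage 18.

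*hoxb3.S*, a gene of the posterior hindbrain, was already measurable at stage 11. Over the stages in order, replicate 1 held 5.15, 3.46, 9.58, 8.26, 12, 10.6, 11.4, 18.8, 14.2 and 21.7 CPM of it. The same stages of replicate 2 held 3.46, 4.48, 4.79, 5.38, 5.97, 9.03, 10.3, 9.98, 11 and 8.69 CPM. Both stage 18 libraries lay above both stage 11 libraries (log2 fold change 1.79 ± 0.58, edgeR adjusted p = 0.0215). *hoxa3.S*, whose mouse counterpart acts in the neck and the third pharyngeal arch, had a higher mean at each stage up to stage 18. From stage 11 to stage 18 its level was 0.102, 0.258, 1.01, 1.51, 2.27, 3.75, 3.83, 8.53, 8.76 and 14.3 CPM in replicate 1. In replicate 2 it was 0, 0.149, 0.39, 0.0972, 0.857, 1.69, 2.15, 3.39, 7.29 and 7.48 CPM. It passed 50% of its highest mean at stage 15.8, and stage 18 lay far above stage 11 (log2 fold change 7.07 ± 1.25, edgeR adjusted p = 0.000392). *hoxd3.S*, which in mouse takes part in forming the first neck vertebrae, stood at 0.373 and 0.896 CPM at stage 11, 9.53 and 5.51 CPM at stage 14 and 24.7 and 13.5 CPM at stage 18 (log2 fold change 5.11 ± 1.01, edgeR adjusted p = 0.000933 for stage 18 over stage 11).

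All 17 models of the trunk paralogs 4 to 8 were higher at stage 18. *hoxb4.S*, a gene of the posterior hindbrain and anterior spinal cord, was present from stage 11. Replicate 1 stood at 1.59, 1.89, 6.1, 5.38, 6.03, 3.91, 3.73, 7.43, 8.49 and 9.47 CPM over the 10 stages in order. Replicate 2 stood at 1.79, 2.43, 2.73, 2.62, 3, 4.89, 5.99, 6.49, 6.27 and 4.77 CPM. Both libraries of stage 12 lay above both of stage 11, and stage 18 was called higher than stage 11 (log2 fold change 2.08 ± 0.65, edgeR adjusted p = 0.0184). *hoxb6.S*, a trunk gene, had a higher mean at each stage up to stage 14 and was then level. Over the stages in order, replicate 1 held 1.76, 3.18, 6.85, 7.93, 9.82, 13.2, 13, 13.8, 12.6 and 16.1 CPM of it. The same stages of replicate 2 held 1.28, 2.57, 3.4, 6.8, 7.94, 11.2, 9.3, 10.5, 9.73 and 9.1 CPM. Its libraries of stages 14 to 18 lay between 9.10 and 16.1 CPM, all above both libraries of stage 13 except replicate 2 of stages 15, 17 and 18 (log2 fold change 3.00 ± 0.53, edgeR adjusted p = 0.000474 for stage 18 over stage 11).

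*hoxc6.S*, a marker of the thoracic and brachial level, was near its later level sooner in replicate 1 than in replicate 2. From stage 11 to stage 18 its level was 0.373, 2.52, 9.19, 12.5, 13.1, 14.3, 11.3, 18.2, 17.8 and 19.8 CPM in replicate 1. In replicate 2 it was 0, 0.373, 1.73, 3.31, 5.31, 12.1, 13.5, 12.5, 13.4 and 13.5 CPM. At stage 12 replicate 1 held 9.19 CPM and replicate 2 held 1.73 CPM, while at stage 14 they held 14.3 and 12.1 CPM. Stage 18 over stage 11 was called (log2 fold change 5.94 ± 1.13, edgeR adjusted p = 0.000861).

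*hoxa7.L* was at 0.0339 and 0.256 CPM at stage 11, 9.13 and 5.3 CPM at stage 14 and 19.9 and 12.2 CPM at stage 18. *hoxb7.L*, a further trunk gene, was at 0.0339 and 0.256 CPM at stage 11, 8.38 and 3.998 CPM at stage 14 and 24.4 and 14.2 CPM at stage 18. Each had 3 counts in all at stage 11. With counts and depths pooled over the libraries of a stage, which gives the deeper replicate 1 of stage 11 most of the weight, the ratio of stage 18 to stage 11 was 198 for *hoxa7.L* (95% counting interval 67.6 to 962) and 238 for *hoxb7.L* (81.3 to 1156). The ratio of the mean CPM was 110.8 for *hoxa7.L* and 133 for *hoxb7.L*, and replicate 2 alone gave 47.65 and 55.6, below those intervals, which cover counting error only. Both were called (adjusted p = 0.000499 and 0.00023 from edgeR). *hoxc8.S*, which in mouse patterns the thoracic skeleton, was at 0.543 and 0.256 CPM at stage 11, 12.2 and 5.48 CPM at stage 14 and 24.6 and 10.6 CPM at stage 18 (log2 fold change 5.28 ± 1.15, edgeR adjusted p = 0.00189).

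The paralog 4 genes *hoxc4.L* and *hoxd4.L*, both of the hindbrain and neck in mouse, differed in shape. *hoxc4.L* was at 0.136 and 0 CPM at stage 11, 5.3 and 3.32 CPM at stage 14 and 15.5 and 9.16 CPM at stage 18 (log2 fold change 6.87 ± 1.33, edgeR adjusted p = 0.000818). *hoxd4.L* was at 0.0339 and 0 CPM at stage 11, 6.1 and 4.44 CPM at stage 14 and 6.85 and 4.55 CPM at stage 18, which left it with little further rise after stage 14. *hoxb5.S* was highest at stage 14, at 1.95 and 1.01 CPM, and *hoxc5.L* at the same stage, at 3.23 and 3.44 CPM, and neither was called between stages 18 and 14 by edgeR.

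Among the posterior paralogs, *hoxb9.S*, long used as a spinal cord marker in the frog, had its highest level in both replicates at the last stage. Replicate 1 stood at 0.61, 1.86, 3.48, 8.59, 16.2, 26.1, 33.1, 59.5, 51.4 and 78.7 CPM over the 10 stages in order. Replicate 2 stood at 0.384, 0.187, 2.005, 2.17, 6.49, 13.7, 18.1, 24.2, 33.1 and 41.3 CPM. Both stage 18 libraries lay above both stage 14 libraries and those above both stage 11 libraries (log2 fold change 6.78 ± 1.01, edgeR adjusted p = 9.99e-05 for stage 18 over stage 11). *hoxd10.S*, which acts in lumbar motor neurons in mouse and chick, also had its highest level in both replicates at the last stage. Without the block it was first called above stage 11 at stage 14 (edgeR adjusted p = 0.0275). Over the stages in order, replicate 1 held 0.475, 0.172, 0.421, 0.944, 2.5, 4.43, 4.29, 9.15, 9.97 and 14.4 CPM of it. The same stages of replicate 2 held 0.128, 0.298, 0.585, 0.324, 0.429, 1.45, 2.42, 3.002, 6.08 and 7.02 CPM. Stage 18 over stage 11 was called (log2 fold change 4.87 ± 0.96, edgeR adjusted p = 0.000935).

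*hoxa9.L*, a posterior trunk gene, was at 0.339 and 0 CPM at stage 11, 11 and 6.16 CPM at stage 14 and 22.4 and 12.4 CPM at stage 18 (log2 fold change 6.14 ± 1.1, edgeR adjusted p = 0.000439). *hoxc9.L*, which in mouse sets the thoracic type of motor neurons, was at 1.87 and 0.64 CPM at stage 11, 25.5 and 12 CPM at stage 14 and 35.1 and 18.4 CPM at stage 18 (log2 fold change 4.26 ± 1.08, edgeR adjusted p = 0.00535). For *hoxc9.L*, replicate 1 of stage 14 (25.5 CPM) lay above replicate 2 of stage 18 (18.4 CPM). *hoxd9.L* was at 0.678 and 1.02 CPM at stage 11, 14.4 and 4.59 CPM at stage 14 and 22.4 and 13.5 CPM at stage 18 (log2 fold change 4.48 ± 0.94, edgeR adjusted p = 0.00146).

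*hoxc10.L*, a lumbar-level gene in mouse, was at 1.42 and 0.384 CPM at stage 11, 6.02 and 3.26 CPM at stage 14 and 14.6 and 9.82 CPM at stage 18 (log2 fold change 3.58 ± 0.74, edgeR adjusted p = 0.00129). *hoxa11.L*, needed for limb and kidney in mouse, was at 0.543 and 0.256 CPM at stage 11, 4.91 and 2.61 CPM at stage 14 and 9.01 and 6.14 CPM at stage 18 (log2 fold change 4.07 ± 0.74, edgeR adjusted p = 0.000485). Each stage 14 library of both genes lay above both stage 11 libraries. Of the 6 models of groups 12 and 13, the tail members, 3 were called at stage 18. *hoxc12.L* was at 2.8 and 1.64 CPM at stage 18 and 1.12 and 1.66 CPM at stage 11, with overlap (log2 fold change 0.71 ± 0.69, edgeR adjusted p = 0.436). *hoxc13.S* was at 2.8 and 2.22 CPM at stage 18 and 1.46 and 0.896 CPM at stage 11 and was called with a small change (log2 fold change 1.03 ± 0.34, edgeR adjusted p = 0.0229). For *hoxd13.L* the log2 fold change was 1.07, and -0.22 without DMZ stage 18 replicate 1.

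**Figure D3:**
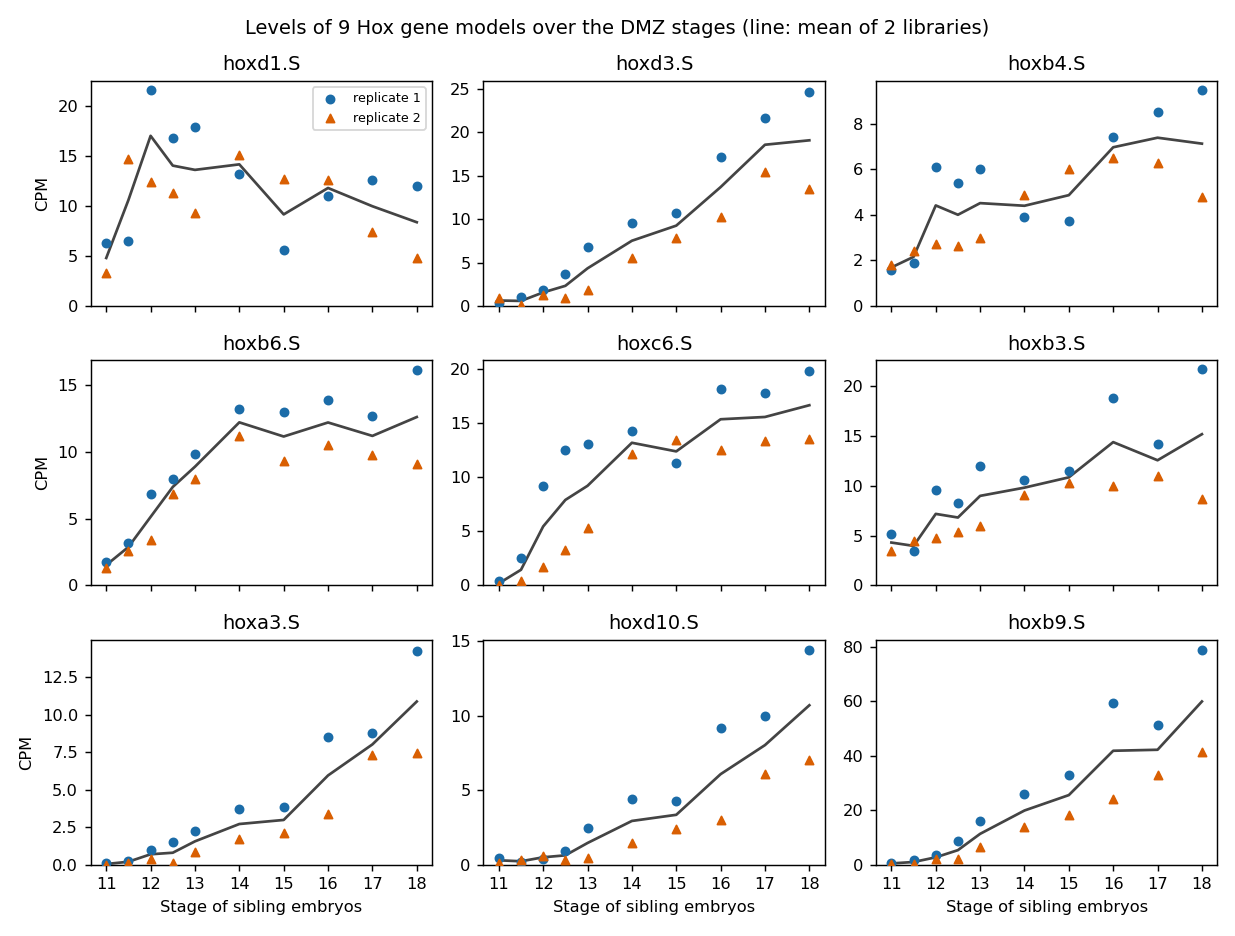
Level in CPM of 9 Hox gene models in each DMZ library by stage, with circles for replicate 1, triangles for replicate 2 and a line through the mean of the 2. hoxd1.S peaks at stage 12 at a mean of 17.0 CPM, hoxb6.S levels off from stage 14, and hoxb9.S ends at 78.7 and 41.3 CPM at stage 18.

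Between stages 14 and 18 the Hox set as a whole was still higher at the later stage, but no single model was called. The median log2 fold change was 1.02 over the 52 models and 0.001 over all models, 47 of the 52 had a positive change (50.1% of all models), and 31 had both stage 18 libraries above both stage 14 libraries (29.9% of all models). edgeR called 3.94% of all models higher and 3.67% lower. Of the Hox models, 15 were higher at an unadjusted p under 0.05 (11.7% of all models), and DESeq2 called none of the 49 to which it gave an adjusted p, against 6.44% higher and 6.22% lower of all models with one. With the replicate number as a block, edgeR called 14 higher, and 0 lower, against 8.89% and 8.34% of all models. They were *hoxa2.S*, *hoxa3.L*, *hoxa3.S*, *hoxa9.S*, *hoxa11.L*, *hoxa11.S*, *hoxb1.L*, *hoxb7.L*, *hoxb9.S*, *hoxc4.L*, *hoxc10.L*, *hoxc12.S*, *hoxd9.S* and *hoxd10.S*.

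Timing was also described without a test, by the stage at which the mean level first reached 50% of its highest DMZ mean, interpolated between stages, for the 47 models with at least 1 CPM in the highest stage. A value of 11 means that the model stood at 50% or more at the first stage sampled. The value follows the highest mean, which stood at stage 18 in 41 of the 52 models. A model that rose early and kept rising thus has a late value, so this stage is not an onset. *hoxa7.L* at 15.0, *hoxa9.L* at 15.1 and *hoxb9.S* at 15.3 were all among the models called first, at stage 12.5, without the block. The median was 13.98, from 11 for *hoxc12.L* to 17.2 for *hoxa2.L* (gene18378). Across the 47 models Spearman's rho between paralog number and this stage was 0.101, and it was 0.055 from replicate 1 alone and 0.21 from replicate 2 alone. The models share libraries and homeologs share sequence, so no p is given. Within clusters rho was 0.114 in A (15 models), 0.489 in B (9), -0.155 in C (11) and 0.504 in D (12), where replicate 1 alone gave -0.035 and replicate 2 alone 0.419. The first called stage gave a rho of -0.002 over the 46 models that have one.

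*hoxd1.S* was early, at 11.3. Without paralog group 1 rho over the other 44 models was -0.06, so the sign of this small value depends on which groups are kept. The posterior models *hoxc12.L* at 11 and *hoxc13.S* at 11.3 had values as early as *hoxd1.S*, but both stayed low. *hoxc12.L* was not called higher at any stage tested up to stage 18, so its value does not mark a rise. Early values were also found among the middle paralogs, *hoxb4.S* at 11.8, *hoxb5.S* at 12.0, *hoxc5.L* at 12.1, *hoxb6.S* at 12.3 and *hoxc6.S* at 12.7. Late values were found in all 3 classes, with *hoxa3.S* at 15.8, *hoxd10.S* at 15.7, *hoxc12.S* at 15.5, *hoxb7.L* at 15.4 and both *hoxa7* copies at 15.0 and 15.1. The median was 14.4 for paralogs 1 to 3 (12 models), 13.6 for 4 to 8 (17) and 14.3 for 9 to 13 (18). By paralog group, with group 1 not given, it was 15.4 for group 2, 15.1 for 3, 13.9 for 4, 12.8 for 5, 12.5 for 6, 15.0 for 7, 13.7 for 8, 15.0 for 9, 15.2 for 10, 14.3 for 11, 13.3 for 12 and 13.9 for 13, each over 2 to 6 models. With only models of at least 5 CPM in the highest stage rho was 0.282, and without groups 12 and 13 it was 0.23.

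**Figure D4:**
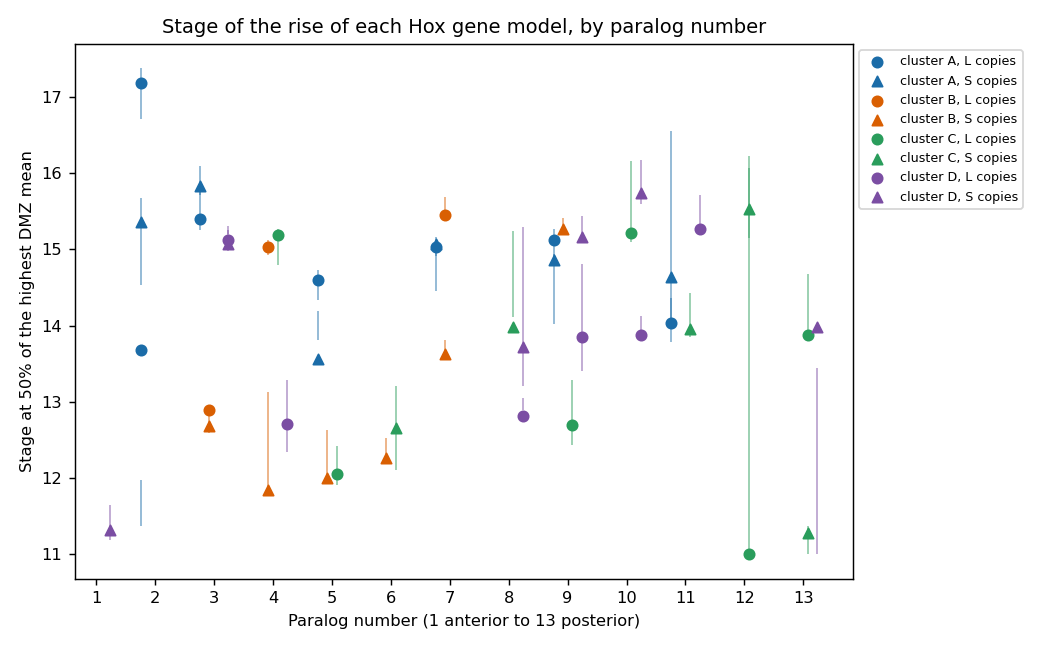
Stage at which each of 45 Hox gene models first reached 50% of its highest DMZ mean, against its paralog number, coloured by cluster, with circles for L and triangles for S copies. Thin lines join the values from replicate 1 alone and replicate 2 alone, and hoxd1.S lies at 11.3.

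By level, 4 models had at least 1 CPM in both libraries from stage 11 onward, *hoxb3.S*, *hoxb4.S*, *hoxb6.S* and *hoxd1.S*. By stage 12 there were 16, and by stage 18 there were 45 of the 52. This count depends on transcript length and depth, and with 5 CPM in place of 1 it was 21 at the end. The highest DMZ mean was at stage 18 in 41 models and at stage 17 in 6. It was earlier in the other 5, among them *hoxd1.S* (stage 12) and *hoxb5.S* and *hoxc5.L* (stage 14).

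At stage 11 the regions were compared to find which Hox transcripts set the mesoderm-forming margins apart from the cap, and the dorsal margin apart from the ventral one. The summed Hox level was 35.4 and 24.6 CPM in DMZ explants, 41.1 and 24.04 CPM in VMZ explants and 23.9 and 13.3 CPM in caps. DMZ and VMZ explants overlapped, and both caps lay below the 4 marginal zone libraries, the higher cap by little. Caps were cut at an earlier stage than the marginal zones and pooled in a larger number, and these differences and that of region cannot be told apart. For DMZ over cap, edgeR called 4 Hox models higher and 0 lower, against 2.49% and 0.718% of all models. At an unadjusted p under 0.05 there were 9 higher and 3 lower (8.05% and 4.73% of all models), and DESeq2 called 6 higher and 0 lower (4.11% and 1.66%).

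*hoxd1.S* stood at 6.27 and 3.33 CPM in DMZ explants, 6.03 and 3.56 CPM in VMZ explants and 0.0363 and 0.193 CPM in caps. It was higher in DMZ explants than in caps (log2 fold change 5.33 ± 0.80, edgeR adjusted p = 0.000913) and higher in VMZ explants than in caps (log2 fold change 5.29 ± 0.79, edgeR adjusted p = 0.00218), with no overlap. The DMZ and VMZ libraries overlapped (log2 fold change 0.04 ± 0.58, edgeR adjusted p = 0.994). Without cap replicate 1 the call in VMZ explants was lost (adjusted p = 0.0628 from edgeR).

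*hoxb6.S* stood at 1.76 and 1.28 CPM in DMZ explants, 3.11 and 0.833 CPM in VMZ explants and 0 in both caps. With the caps set to a floor of 3 counts over the group, it was at least 32.5-fold higher in DMZ explants (adjusted p = 0.000415 from edgeR) and at least 35.1-fold higher in VMZ explants (adjusted p = 0.000631). Those floors bound the counting error only. *hoxb4.S* stood at 1.59 and 1.79 CPM in DMZ explants, 0.523 and 0.0675 CPM in VMZ explants and 0 in both caps. It was at least 31.96-fold higher in DMZ explants than in caps (adjusted p = 0.00171 from edgeR). *hoxb3.S* stood at 5.15 and 3.46 CPM in DMZ explants, 2.21 and 0.563 CPM in VMZ explants and 0.145 and 0.225 CPM in caps, and was higher in DMZ explants than in caps (log2 fold change 4.52 ± 0.73, edgeR adjusted p = 0.00177). For both genes the lowest DMZ library lay above the highest VMZ library. This held for 4 of the 52 models, while 11, *hoxa11.S* among them, lay wholly the other way. The shares of all models that do so are not given here, and the difference was not tested.

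A fit of the compared groups alone kept 1 of the 4 calls of DMZ over cap, that of *hoxb3.S*. It gave adjusted p = 0.0839 for *hoxb6.S*, 0.0721 for *hoxb4.S* and 0.0854 for *hoxd1.S* with edgeR. The share of all models called in that fit is not given. With the replicate block 5 models were higher, with *hoxc10.L* added, and 2 were lower in DMZ explants, *hoxa11.S* and *hoxc11.S*, against 3.81% and 1.59% of all models. *hoxa11.S* stood at 0.102 and 0 CPM in DMZ explants, 0.431 and 0.158 CPM in VMZ explants and 0.762 and 0.708 CPM in caps (log2 fold change -3.20 ± 1.02, edgeR adjusted p = 0.121 without the block). *hoxc11.S* stood at 0.102 and 0.256 CPM in DMZ explants, 0.554 and 0.27 CPM in VMZ explants and 1.7 and 0.515 CPM in caps (log2 fold change -2.89 ± 0.98, edgeR adjusted p = 0.154 without the block).

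For VMZ over cap edgeR called 2 Hox models higher, *hoxb6.S* and *hoxd1.S*, and 0 lower, against 0.721% and 0.313% of all models. At an unadjusted p under 0.05 there were 14 higher and 1 lower (5.79% and 4.36% of all models). With the replicate block there were 6 higher (1.61% of all models), with *hoxb3.S*, *hoxc5.L*, *hoxc9.L* and *hoxc10.L* added, and 1 lower (1.16%), *hoxa7.S*. *hoxa7.S* stood at 1.15 and 0.512 CPM in DMZ explants, 0.80 and 0.473 CPM in VMZ explants and 6.85 and 0.773 CPM in caps. Only replicate 1 of the caps was high, and the other cap library overlapped the VMZ libraries. A fit of the compared groups alone called 0 higher, with adjusted p = 0.464 for *hoxb6.S* and 0.308 for *hoxd1.S* in edgeR. DESeq2 called 7 higher and 0 lower (2.26% and 1.51%). In edgeR the count was higher without VMZ replicate 2 and lower without cap replicate 1. The shares of all models called are not given for these fits or for that of the compared groups alone.

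No Hox model was called between DMZ and VMZ explants at stage 11 by edgeR, where 2.24% of all models were higher and 0.906% lower in the DMZ. The median log2 fold change was -0.34 over the 52 models and -0.04 over all models. It was positive in 20 of the 52 models, against 46.7% of all models. At an unadjusted p under 0.05 there were 3 higher in DMZ explants, *hoxb3.S*, *hoxb4.S* and *hoxb9.S*, and 3 lower, *hoxd9.S* among them, against 9.68% and 8.29% of all models. *hoxb4.S* had the lowest adjusted p of the members (log2 fold change 2.56 ± 0.72, edgeR adjusted p = 0.0697). With the block, *hoxb3.S* (adjusted p = 0.0191), *hoxb4.S* (0.0255) and *hoxb9.S* (0.039) were called higher and *hoxd9.S* (0.0266) lower in DMZ explants, against 5.22% and 3.44% of all models in edgeR. DESeq2 called 1 higher and 1 lower (5.0% and 3.26%). Without VMZ replicate 1 edgeR called some Hox models higher, and the share of all models in that fit is not given.

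**Figure D5:**
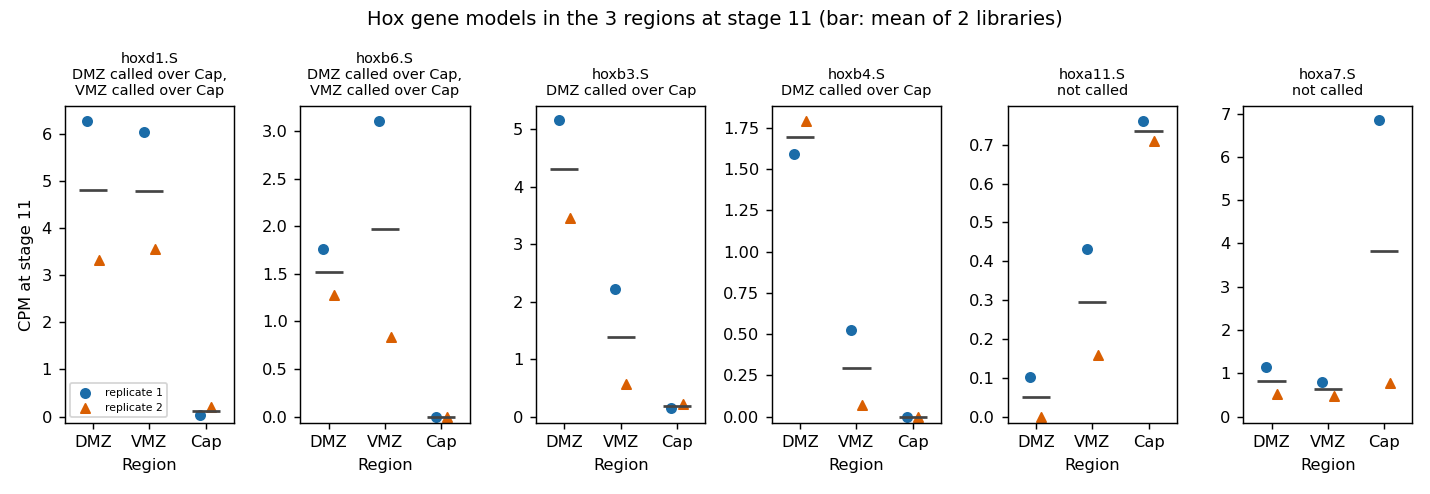
Level in CPM of 6 Hox gene models at stage 11 in DMZ explants, VMZ explants and animal caps (Cap), with circles for replicate 1, triangles for replicate 2 and bars at the mean, each panel on its own scale. hoxb6.S and hoxb4.S are at 0 in both caps, and hoxa7.S is at 6.85 and 0.773 CPM in the caps.

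The L and S copies of 17 Hox genes could both be tested for a change of their ratio between stages 18 and 14, which does not depend on the lengths of the copies. limma called none, against 2.13% higher and 1.97% lower of 5023 pairs, and none had an unadjusted p under 0.05. The lowest adjusted p was 0.375, for *hoxd10*, whose L to S count ratio was 0.743 and 0.579 at stage 18 and 1.29 and 1.38 at stage 14 (log2 change -1.03 ± 0.56). The 95% intervals of the changes were wide, for example -2.13 to 0.08 for *hoxd10* and -1.25 to 3.0 for *hoxb4*. They use a normal approximation from the SE and are narrower than limma's test would give. Sizeable changes of the ratio could thus not be seen. *hoxa7* had a ratio near 1 at both stages, with 0.95 and 0.965 at stage 18 and 1.04 and 0.937 at stage 14. How reads were divided between near-identical copies is uncertain.

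In the timing of the copies, 15 pairs of members had both copies at 1 CPM or more. The stage at 50% of the highest mean differed by a median of 0.90 stages between copies, and by less than 1 stage in 8 of the 15. *hoxa7* (15.0 for L, 15.1 for S) and *hoxd3* (15.1 and 15.1) were close. *hoxb4* was apart, at 15.0 for L and 11.8 for S, as was *hoxb7*, at 15.4 for L and 13.6 for S. *hoxb4.L* was low, at 2.1 and 1.23 CPM at stage 18 and 0 in both libraries of stage 11. In *hoxc12* the L copy was at 11 and the S copy at 15.5.

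The 9 models named only by LOC identifiers rose as well. All 9 were called higher at stage 18 than at stage 11 by edgeR, with a median log2 fold change of 4.35. The second *hoxd1* copy, *hoxd1.L*, stood at 2.88 and 1.92 CPM at stage 11, 29 and 14.5 CPM at stage 12 and 19.2 and 7.59 CPM at stage 18, with its highest mean at stage 12 as in *hoxd1.S*. At stage 11 it stood at 9.69 and 7.92 CPM in VMZ explants and 0 and 0.322 CPM in caps, and was higher than in caps in DMZ explants (log2 fold change 3.85 ± 0.82, edgeR adjusted p = 0.0141) and in VMZ explants (log2 fold change 5.68 ± 0.81, edgeR adjusted p = 0.00144). *hoxc6.L* stood at 41.8 and 27.5 CPM at stage 18 and 2.51 and 0.384 CPM at stage 11 (log2 fold change 4.35 ± 0.96, edgeR adjusted p = 0.00218), and passed 50% of its highest mean at stage 12.1. *hoxb1.S*, a hindbrain gene that marks the fourth rhombomere in mouse, stood at 0.407 and 0 CPM at stage 11, 6.57 and 1.73 CPM at stage 12 and 11.5 and 6.25 CPM at stage 18 (log2 fold change 4.95 ± 0.82, edgeR adjusted p = 0.000235 for stage 18 over stage 11). At stage 11, 2 of the 9 were called higher in DMZ explants than in caps and 1 in VMZ explants than in caps (2.49% and 0.721% of all models). The other model called over caps in DMZ explants was *hoxb2.S* (log2 fold change 6.88 ± 1.42, edgeR adjusted p = 0.0129). *hoxb2.S* was not called between DMZ and VMZ explants (log2 fold change 3.51 ± 0.92, edgeR adjusted p = 0.0546). Nor was *hoxd1.L* (log2 fold change -1.83 ± 0.64, edgeR adjusted p = 0.139). Unlike in *hoxd1.S*, both VMZ libraries of *hoxd1.L* lay above both DMZ stage 11 libraries. With the 9 models added, rho between paralog number and stage was 0.112.

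Genes that act with or on Hox genes were read from lists chosen with earlier results of these data known. Of 14 models of the TALE homeodomain partners of Hox proteins (Pbx, Meis and Pknox genes), 7 were higher and 0 lower at stage 18 than at stage 11 by edgeR, against the 20.9% and 19.6% of all models. *meis1.L* stood at 18.9 and 22.7 CPM at stage 18 and 3.56 and 2.82 CPM at stage 11 (log2 fold change 2.68 ± 0.49, adjusted p = 0.00051). *pknox1.L* stood at 32.01 and 31.01 CPM at stage 18 and 8.003 and 6.66 CPM at stage 11.

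Of 13 models of known regulators of Hox genes (among them Cdx genes, *mafb*, *egr2*, *gdf11* and *nr6a1*), 5 were higher and 0 lower at stage 18, against 20.9% and 19.6% of all models. *nr6a1.S*, a nuclear receptor that in mouse acts on trunk Hox genes, stood at 146 and 195 CPM at stage 18 and 47.8 and 12.7 CPM at stage 11 (log2 fold change 2.47 ± 0.72, adjusted p = 0.0126 from edgeR). At stage 11, 6 of the 13 were higher in DMZ explants than in caps and 6 in VMZ explants than in caps, against 2.49% and 0.721% of all models.

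Of 27 models of retinoic acid synthesis, breakdown and reception, which sets Hox boundaries in the hindbrain, 7 were higher and 3 lower at stage 18, against 20.9% and 19.6% of all models. *cyp26c1.L*, which breaks down retinoic acid, stood at 157 and 230 CPM at stage 18 and 6.31 and 8.83 CPM at stage 11 (log2 fold change 4.70 ± 0.47, adjusted p = 3.97e-06 from edgeR). *rxrg.L*, a retinoid X receptor gene, stood at 0.321 and 0.219 CPM at stage 18 and 2.07 and 4.48 CPM at stage 11 (-3.54 ± 0.68, adjusted p = 0.000752). The 1 even-skipped homolog tested, a neighbour of Hox clusters in vertebrates, was not called at stage 18.

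The authors' deposited table marked 45 of the 52 Hox models as differentially expressed. Those 45 were also the Hox models to which it gave a cluster number, as it did to 43.9% of all models. The table placed 36 of the 45 in its cluster 4 (13.1% of all models), 8 in cluster 5 (7.03%) and 1, *hoxd1.S*, in cluster 3 (2.82%). The sources used here do not say which test gave those marks.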

How the data were processed

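RNA-seq counts were analysed for DMZ explants at 10 stages and for VMZ explants and animal caps at stage 11. The values used are counts, which the authors deposited as whole numbers for each gene model in each library. Per the submitters' processing notes, the tools were Trim Galore, kallisto and DESeq2. Tool versions, genome build and strand handling are not given in these sources, and how kallisto divided reads between L and S copies or antisense partners is uncertain. The authors' deposited table of log2 values, adjusted p-values and cluster numbers was used only for its marks of differential expression and its clusters.

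Counts were fitted in R 4.3.3 with edgeR 4.0.16: filterByExpr by group (minimum count 10, minimum total 15) left 31349 models, all 52 Hox models among them, followed by TMM scaling and a robust quasi-likelihood fit with 1 coefficient per group over all 24 libraries (12 residual degrees of freedom, biological coefficient of variation 0.33). With 2 libraries per group, the spread comes mostly from the other groups. P-values are two-sided and adjusted by Benjamini-Hochberg over all models, with calls made below 0.05. The SE is the log2 fold change divided by the square root of F, a rough guide at low counts. The L to S ratio was tested with limma 3.58.1 (trend, 0.5 added to each count). The steps were tested on simulated data with large changes in well-counted models and no pairing of replicates. That test does not cover models with few counts or the replicate pairing. Alternatives were DESeq2 1.42.0, other scalings and filters, a replicate block, fits of the compared groups alone, summed copies and leaving out each library.

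The replicate numbers paired the samples: over 66 pairs of groups, same-numbered libraries deviated together (correlation across genes 0.24 to 0.67, median 0.41). It is this check, not a label, that gives the pairing. Values in each library are given for the Hox model of highest level in each paralog group of each cluster with at least 5 CPM. For 8 of them all stages are given, and for the others stages 11, 14 and 18. Such values are also given for the members called between regions without the block. Members, lists and this rule were chosen with earlier results of these data known. A few models are counted in the totals but not reported here one by one. Sequences and coordinates are not analysed here. Depth per library and its floor of 3 counts stand with the results.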

Additional observations from a re-analysis of the deposited data

How the results depend on the processing

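Direction and calls of the Hox set at stage 18 over stage 11 varied little: 36 to 45 models were called higher when 1 library was left out, and 32 to 38 for any change. For stage 14 over stage 11, and for models first called by stage 14, the range was 18 to 35, and for 12 over 11 it was 0. The replicate block gave 20 for stage 12 over 11, 33 in place of 12 for 12.5 over 11, 14 for 18 over 14, 3 higher and 1 lower for DMZ over VMZ, 2 lower for DMZ over cap, and 6 higher and 1 lower for VMZ over cap. The replicate pairing changed the count of no other comparison by more than 1.5 times. DESeq2 gave 13 for stage 12 over 11, 1 higher and 1 lower for DMZ over VMZ, and 7 for VMZ over cap. Fits of the compared groups alone gave 1 for stage 18 over 14, 1 for DMZ over cap and 0 for VMZ over cap. Leaving out 1 library gave 0 to 2 for DMZ over VMZ, 4 for DMZ over cap and 1 to 5 for VMZ over cap. Spearman's correlation between paralog number and stage was 0.282 at 5 CPM, 0.23 without groups 12 and 13, -0.06 without group 1 and 0.007 to 0.212 without 1 library. The last 2 sets of members left out were chosen after seeing the data. Detection gave 21 models at 5 CPM, and 45 to 47 without 1 library. Of 1788 recomputed values of single models, 2 changed sign, neither of them called: *hoxd1.S* (-0.036) and *hoxd13.L* (-0.215) at stage 18 over 11 without DMZ stage 18 replicate 1. With 1 library left out their ranges were -0.036 to 1.33 and -0.215 to 1.854. With that library left out, each change rests on 1 stage 18 library, assumed to vary like the other groups. The cause of the other shifts was not tested. Shares of all models called are not given for fits without 1 library or of the compared groups alone. Such counts thus do not tell a general loss of calls from one in the Hox models. Depth limits onsets near stage 11, where 1 library held 7.38 M counts.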
